A study of Mus musculus with 8 samples.

Results

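Inflammasomes are cytosolic protein platforms by which macrophages answer microbes and cell damage with an inflammatory form of death. A sensor such as NLRP3, NLRP1B or the NAIP and NLRC4 pair assembles, often through the adaptor ASC, and activates caspase-1. Caspase-1 matures IL-1 family cytokines and cleaves gasdermin D, whose fragment forms pores in the plasma membrane (pyroptosis), and a second caspase, encoded in the mouse by Casp4, binds cytosolic lipopolysaccharide (LPS) and cleaves gasdermin D directly. The genes described here were the 10 listed under these roles: the sensors Nlrp3, Nlrp1b, Nlrc4 and Naip5, the adaptor Pycard (ASC), the NLRP3 partner Nek7, the inflammatory caspases Casp1 and Casp4, and the substrates Gsdmd and Il18. They were found by symbol through the GENCODE M21 names of the Ensembl identifiers, as 10 of the 49315 genes in the count table, and all 10 were among the 13051 genes with enough reads to be tested.

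The libraries came from primary bone marrow-derived macrophages (BMDMs) of C57BL/6 mice, grown in medium with M-CSF at 10 ng/ml. Cells in both arms were transfected, with a lipid reagent, with a gapmeR, a chimeric antisense oligonucleotide whose pairing with an RNA leads to its cleavage by RNase H, at 25 nM per the labels. The study's methods give this amount in a different unit. In 4 libraries it was a customized gapmeR against the lncRNA MAARS (replicates 9, 11, 13 and 15) and in 4 the negative control gapmeR (replicates 2, 5, 6 and 7), and no inflammasome stimulus is named in the labels. Ribodepleted total RNA was sequenced as paired reads of 100 bases, so transcript levels were measured and not cleavage, assembly or secretion of the proteins. The comparison asks how the knockdown of MAARS changed the macrophage transcriptome. As each arm received its own oligonucleotide, the loss of MAARS and other effects of either gapmeR cannot be told apart.

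Levels are given as CPM (counts of a gene relative to its library's total) scaled by edgeR's TMM factors, with the control values in the order 2, 5, 6, 7 and the MAARS gapmeR values in the order 9, 11, 13, 15. Fold changes are log2 values of MAARS gapmeR over control gapmeR with 95% intervals, and each adjusted p is from the edgeR quasi-likelihood fit to all 13051 genes, corrected by the Benjamini-Hochberg method. MAARS itself (Gm14461, GRCm38 chr2:78237547-78302230, a lincRNA) was at 12.2, 15.1, 12.97 and 12.2 CPM in the control libraries and at 7.70, 6.40, 7.30 and 5.85 CPM with the MAARS gapmeR. The groups did not overlap, and the log2 fold change was -0.95 (interval -1.19 to -0.70, adjusted p = 5.8e-05, exact two-sided permutation p = 0.0286, the smallest that 4 against 4 allows), a decrease of 48.1%.

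The libraries held 19287279 to 20567123 counts in the control group and 20839671 to 24541205 in the MAARS group, and every MAARS library was deeper than every control library, so depth and group cannot be told apart. A gene was called where its adjusted p was under 0.05. Of all genes tested, 3137 were thus lower and 2782 higher, so that 47.0% of the calls were on the higher side. That share was 60.4% with upper-quartile factors and 60.8% with library totals alone. All 6 macrophage markers were detected, with summed levels of 13500 to 16720 CPM in the control and 16580 to 19750 CPM in the MAARS libraries: Csf1r, Itgam and Lyz2 were called higher, Cd68 and Fcgr1 lower, and Adgre1 not called. Of the Itgam exon bases, 68.7% overlap Gm49368 on the same strand, so reads of these genes may not have been told apart there. For Csf1r, 15.1% overlap Hmgxb3 on the opposite strand. Markers of other cells were summed in the same way as the macrophage markers. Fibroblast markers held 459.1 to 1046 and 718.9 to 1236 CPM, neutrophil markers 54.9 to 154.2 and 57.8 to 92.8, and endothelial markers 46.9 to 78.5 and 75.5 to 138.8, in the control and MAARS libraries. No fibroblast or neutrophil marker was called, whereas of the 3 endothelial markers tested Vwf was higher and Kdr lower. Dendritic cell, lymphocyte, mast cell and erythroid or megakaryocyte markers summed to at most 4.55 CPM in any library. Of the 3 of these tested, Ppbp, a megakaryocyte marker, was called higher (0.97, adjusted p = 0.0106) and Zbtb46 and Itga2b were not called. Cd3g, Fcer1a, Mcpt4 and Tpsb2 were among the markers at 0 in every library. The part of these markers in the results below was not tested. In bulk RNA, fewer cells of a type and less RNA per cell cannot be told apart. The sums are not amounts of each cell type. Lyz2 made up most of the macrophage sum, at 8041 to 11030 CPM in the control and 11800 to 14660 CPM in the MAARS libraries. S100a8 and S100a9 made up most of the neutrophil sum, while Ly6g had at most 8 counts in any library. Col1a1 and Col1a2 made up most of the fibroblast sum, and Vwf most of the endothelial sum.

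Of the 10 inflammasome and pyroptosis genes, 7 were called lower with the MAARS gapmeR, beside 24.0% of all genes tested, and 1 was called higher, beside 21.3%. Casp4 fell the furthest, followed by Casp1, Il18, Gsdmd, Nlrp1b, Pycard and Nlrp3. Nlrc4 rose, and Naip5 and Nek7 were not called. The median log2 fold change of the 10 genes was -0.287, and that of all genes tested was 0.008. Every control value exceeded every MAARS value for 5 of the 10 genes (Casp1, Casp4, Il18, Pycard and Nlrp1b), beside 22.8% of all genes, and the reverse held for Nlrc4, beside 19.3%. Nothing in the labels says that the cultures came from separate mice, so the p-values measure the spread between these 8 cultures, which may be technical.

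**Figure D1:**
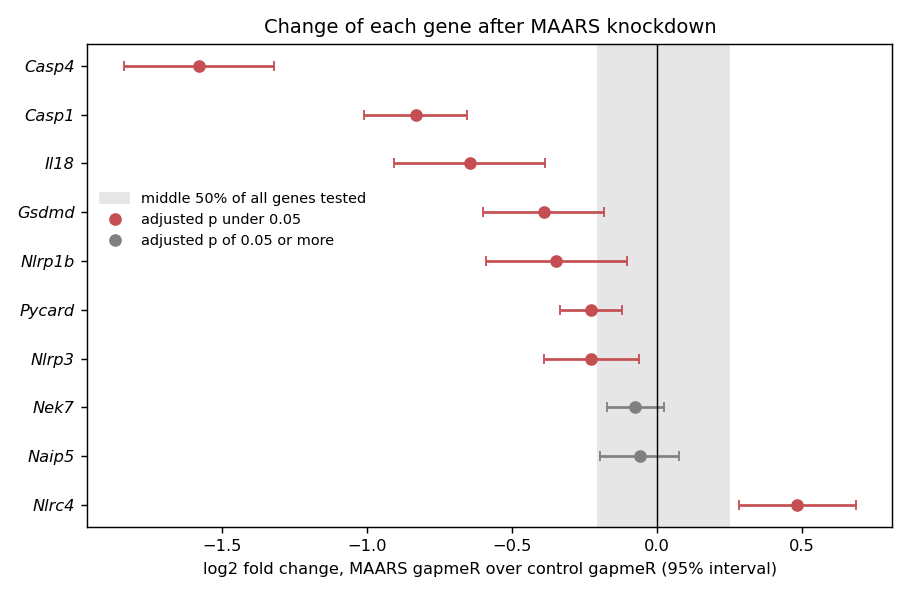
Log2 fold change of each of the 10 genes, MAARS gapmeR over control gapmeR, with its 95% interval (x axis), genes ordered by value (y axis); red points have an adjusted p under 0.05 and the grey band holds the middle 50% of all 13051 genes tested, from -0.205 to 0.249. Casp4 lies at -1.58 and Casp1 at -0.83, left of all other members, and Nlrc4 alone lies to the right of the band, at 0.49.

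The bases before the transcription starts are shown for 5 of the genes, because they pair the members that fell the most (Casp1 and Casp4, neighbours on chromosome 9) with the only one that rose (Nlrc4), and because Pycard and Nlrp1b hold the only motif match among the members. The sequences are from RefSeq on GRCm38.p6 and run 5′ to 3′ on the gene's strand to the base before the start, or to the first exon base of a longer annotated transcript (Casp4 and Nlrc4). Capitals mark the PU.1 motif GAGGAAGT or its reverse complement.
Casp1, chr9:5298267-5298516, plus strand: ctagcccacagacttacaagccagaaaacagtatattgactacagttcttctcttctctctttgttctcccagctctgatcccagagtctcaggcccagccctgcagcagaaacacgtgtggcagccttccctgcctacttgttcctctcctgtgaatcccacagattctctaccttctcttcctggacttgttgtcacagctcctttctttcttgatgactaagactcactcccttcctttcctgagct
Casp4, chr9:5308599-5308827, plus strand: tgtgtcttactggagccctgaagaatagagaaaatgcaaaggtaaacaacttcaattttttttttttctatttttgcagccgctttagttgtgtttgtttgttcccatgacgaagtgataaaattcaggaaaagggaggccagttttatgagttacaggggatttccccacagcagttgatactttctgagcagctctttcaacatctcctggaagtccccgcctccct
Nlrc4, chr17:74459143-74459358, minus strand: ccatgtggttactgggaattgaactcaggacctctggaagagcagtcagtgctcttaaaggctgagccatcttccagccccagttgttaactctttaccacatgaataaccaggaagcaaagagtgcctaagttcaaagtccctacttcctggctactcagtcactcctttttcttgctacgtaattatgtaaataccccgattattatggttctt
Pycard, chr7:127993868-127994117, minus strand: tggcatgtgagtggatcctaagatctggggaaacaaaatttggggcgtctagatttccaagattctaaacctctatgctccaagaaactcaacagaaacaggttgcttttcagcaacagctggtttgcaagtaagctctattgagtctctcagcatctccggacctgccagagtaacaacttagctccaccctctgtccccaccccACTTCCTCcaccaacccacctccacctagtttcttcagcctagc
Nlrp1b, chr11:71230734-71230983, minus strand: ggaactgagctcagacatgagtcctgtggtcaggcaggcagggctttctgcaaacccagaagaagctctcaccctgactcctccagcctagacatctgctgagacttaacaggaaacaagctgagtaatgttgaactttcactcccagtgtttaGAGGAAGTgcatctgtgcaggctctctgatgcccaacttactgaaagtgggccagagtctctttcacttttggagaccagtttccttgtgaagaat
Windows from 250 bases before to 50 bases after a start were at hand for 9 of the 10 genes (all but Gsdmd), 12 windows in all. Casp4, Nlrp3 and Nlrp1b had 2 windows each. Those of Casp4 begin at chr9:5308599 and chr9:5308610 and share most of their bases, so the 12 are not separate promoters. All windows were searched on both strands for an interferon-stimulated response element core (ISRE, GAAANNGAA), a gamma-activated site (GAS, TTCNNNGAA) and the PU.1 motif. The motifs share the letters GAA, and no match in the members' windows overlapped another. The ISRE core was in 0 of the 12 windows and in 8.56% of all 32851 RefSeq windows, and the GAS letters were in 0 of 12 and in 8.30% of all. The PU.1 letters were in 2 of 12 windows, those of Pycard (first base 44 before the start) and Nlrp1b (96 before the start), and in 3.20% of all. A missing match says only that these letters are not in these windows. Among the neighbours of the members, the Naip2 window held an ISRE core that begins 4 bases before the start. The Nlrp1a window held the PU.1 letters, 83 bases before the start, and the Naip6 window held no match. Of the other genes searched, Aim2 had the PU.1 letters 113 bases before the start. Irf1 had the GAS letters in 1 of 2 windows, 90 bases before the start, and Il18bp had no match.

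The sensors were measured first. Nlrp3 (chr11:59541568-59566956) encodes the sensor of potassium efflux and membrane damage. Its level was 34.3, 40.1, 42.5 and 39.0 CPM in the control libraries and 33.1, 32.5, 30.9 and 36.8 CPM with the MAARS gapmeR. The groups overlapped, since MAARS replicate 15 lay above control replicate 2, and the fold change of -0.23 (interval -0.39 to -0.06) had an adjusted p of 0.029. This call was lost in 6 of the 8 fits that left out 1 library (adjusted p up to 0.0845), all but those without control replicate 2 or MAARS replicate 15, and with upper-quartile factors (-0.16, adjusted p = 0.094) and library totals (-0.16, adjusted p = 0.0878).

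Nlrp1b (chr11:71153102-71230733) encodes a sensor that is released when proteases cleave it or when DPP9 is inhibited. It was at 12.5, 10.8, 12.3 and 15.5 CPM in the control and 10.4, 9.14, 9.87 and 10.8 CPM in the MAARS libraries. The lowest control value, 10.84, and the highest MAARS value, 10.78, nearly touched. The log2 fold change was -0.35 (interval -0.59 to -0.10, adjusted p = 0.025). Control replicate 7, the highest of the 8 libraries for Nlrp1b, also had the highest summed neutrophil markers of all libraries (154.2 CPM). Of that sum, S100a8 and S100a9 held 46.91 and 92.69 CPM. It also had the highest fibroblast markers of the controls (1046 CPM), but MAARS replicate 13 had more (1236 CPM) with Nlrp1b at 9.87 CPM. A link of these markers to Nlrp1b was not tested. Without control replicate 7 the fold change was -0.24 (adjusted p = 0.0724). The call was also lost without MAARS replicate 11 (adjusted p = 0.0706) or 13 (adjusted p = 0.0556), with upper-quartile factors (-0.28, adjusted p = 0.0617) and with library totals (-0.28, adjusted p = 0.0722). Its neighbour Nlrp1a, whose end lies 8397 bases away, was not called (-0.12, interval -0.33 to 0.10, adjusted p = 0.344).

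Nlrc4 (chr17:74425438-74459142) encodes the protein that NAIP receptors bring into a wheel-shaped inflammasome after they bind bacterial flagellin or secretion system proteins. Its level was 8.85, 9.72, 11.2 and 9.42 CPM with the control gapmeR and 14.3, 14.1, 14.0 and 12.4 CPM with the MAARS gapmeR. All 4 MAARS values lay above all control values. Nlrc4 rose (log2 fold change 0.49, interval 0.28 to 0.69, adjusted p = 0.0014), the only one of the 10 genes to be called higher. The call held in all 8 fits without 1 library (0.44 to 0.55) and under every other scaling, filter and tool tried.

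Naip5 (chr13:100211739-100246323) encodes the flagellin receptor that acts upstream of NLRC4. It was at 42.7, 44.9, 48.0 and 49.7 CPM and at 44.6, 42.9, 48.2 and 42.3 CPM, in the control and MAARS libraries. The values of the 2 groups were interleaved, and no change was called (-0.06, interval -0.20 to 0.08, adjusted p = 0.468). The sign turned with upper-quartile factors (0.003) and library totals (0.004). The Naip genes lie in a cluster of near copies: 16.2% of all 100-base stretches of Naip5 transcripts also occur in other genes, 8.72% in Naip3, and how reads that match several genes were counted is not given in the sources used here, so the Naip values are uncertain to that extent. Of the other cluster genes, Naip2, whose product recognizes secretion system rod protein, had 110.0 ± 6.76 CPM in the control and 77.6 ± 5.38 CPM in the MAARS group (SD, n = 4 per group) and was called lower (-0.50, interval -0.64 to -0.37, adjusted p = 6.4e-05). Naip6 had -0.25 (adjusted p = 0.045), a call lost with DESeq2-type size factors in edgeR (adjusted p = 0.0505), with upper-quartile factors, with library totals and in 6 of the 8 fits without 1 library. Naip1, at 0.919 to 2.11 CPM in the control libraries, was not called (-0.06, interval -0.72 to 0.59, adjusted p = 0.879).

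Of the adaptor and the NLRP3 partner, the adaptor was called lower and the partner was not called. Pycard (chr7:127989708-127993867) encodes ASC, which joins sensors to caspase-1 and forms the specks seen in activated macrophages. Its level was 43.1, 41.6, 46.0 and 44.7 CPM in the control and 37.3, 37.0, 38.1 and 37.4 CPM in the MAARS libraries. The MAARS values spanned only 37.05 to 38.11 CPM, all under the lowest control value. The decrease of 14.6% (-0.23, interval -0.34 to -0.12, adjusted p = 0.0029) was called in every fit without 1 library. Of the Pycard exon bases, 12.8% overlap the antisense gene Gm45205, and the counting is not stated to use strand, so reads of the 2 genes cannot be told apart there. Nek7 (chr1:138482875-138620141) encodes a kinase that binds NLRP3 and is needed for its assembly. It was at 195.4, 200.6, 195.2 and 183.2 CPM and at 191.1, 181.9, 185.9 and 176.8 CPM, in the control and MAARS libraries. The groups overlapped and the gene was not called (-0.07, interval -0.17 to 0.02, adjusted p = 0.198); the interval leaves room for a decrease of up to 0.17 on the log2 scale.

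Both inflammatory caspases fell, and for neither did the groups overlap. Casp1 (chr9:5298517-5307265) encodes the protease that matures IL-1β and IL-18. Its level was 201.4, 216.6, 232.4 and 225.2 CPM in the control and 111.7, 130.1, 140.7 and 108.9 CPM in the MAARS libraries. These levels rest on 3938 to 4589 counts in each control library and 2364 to 3272 in each MAARS library. Casp1 was 1.78-fold lower (-0.83, interval -1.01 to -0.66, adjusted p = 1.5e-05), with fold changes of -0.91 to -0.78 in the fits without 1 library.

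Casp4 (chr9:5308828-5336783), the gene of the LPS-binding caspase of the noncanonical pathway, was at 57.0, 73.9, 86.2 and 79.5 CPM in the control libraries and at 22.2, 23.7, 28.3 and 25.0 CPM with the MAARS gapmeR. The groups were far apart, with 56.98 CPM as the lowest control and 28.28 CPM as the highest MAARS value. Casp4 was 2.99-fold lower (-1.58, interval -1.84 to -1.32, adjusted p = 5.3e-06), and it was the only one of the 10 genes to fall by at least 1.5 on the log2 scale with an adjusted p under 0.05, beside 1.69% of all genes tested. Leaving out 1 library gave fold changes of -1.68 to -1.51. The gene starts 1562 bases after the end of Casp1 on the same strand, and Casp12, the next gene of the cluster 8646 bases on, was at 2.25 to 3.92 CPM in the control and 1.67 to 3.12 CPM in the MAARS libraries and was not called (-0.50, interval -1.03 to 0.04, adjusted p = 0.117; without MAARS replicate 13 -0.72, adjusted p = 0.028).

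Both substrates fell, with fold changes nearer to 0 than those of the caspases, a difference that was not tested. Gsdmd (chr15:75862327-75867408) encodes gasdermin D, the pore-forming protein itself. It was at 49.0, 65.6, 69.7 and 62.8 CPM in the control and 45.7, 43.7, 50.1 and 48.9 CPM in the MAARS libraries. Control replicate 2 lay within the MAARS range, and the other 3 control libraries lay above it. The log2 fold change was -0.39 (interval -0.60 to -0.18, adjusted p = 0.0062), between -0.48 and -0.33 without 1 library.

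Il18 (chr9:50554827-50581840) encodes the cytokine that caspase-1 releases from its precursor and that drives interferon-γ production by lymphocytes. Its level was 16.9, 23.3, 24.2 and 19.6 CPM with the control gapmeR and 14.1, 11.3, 14.1 and 14.1 CPM with the MAARS gapmeR. The groups did not overlap, and 3 of the MAARS libraries spanned 14.08 to 14.14 CPM while replicate 11 was lower. Il18 was 1.57-fold lower (-0.65, interval -0.91 to -0.39, adjusted p = 0.0011).

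**Figure D2:**
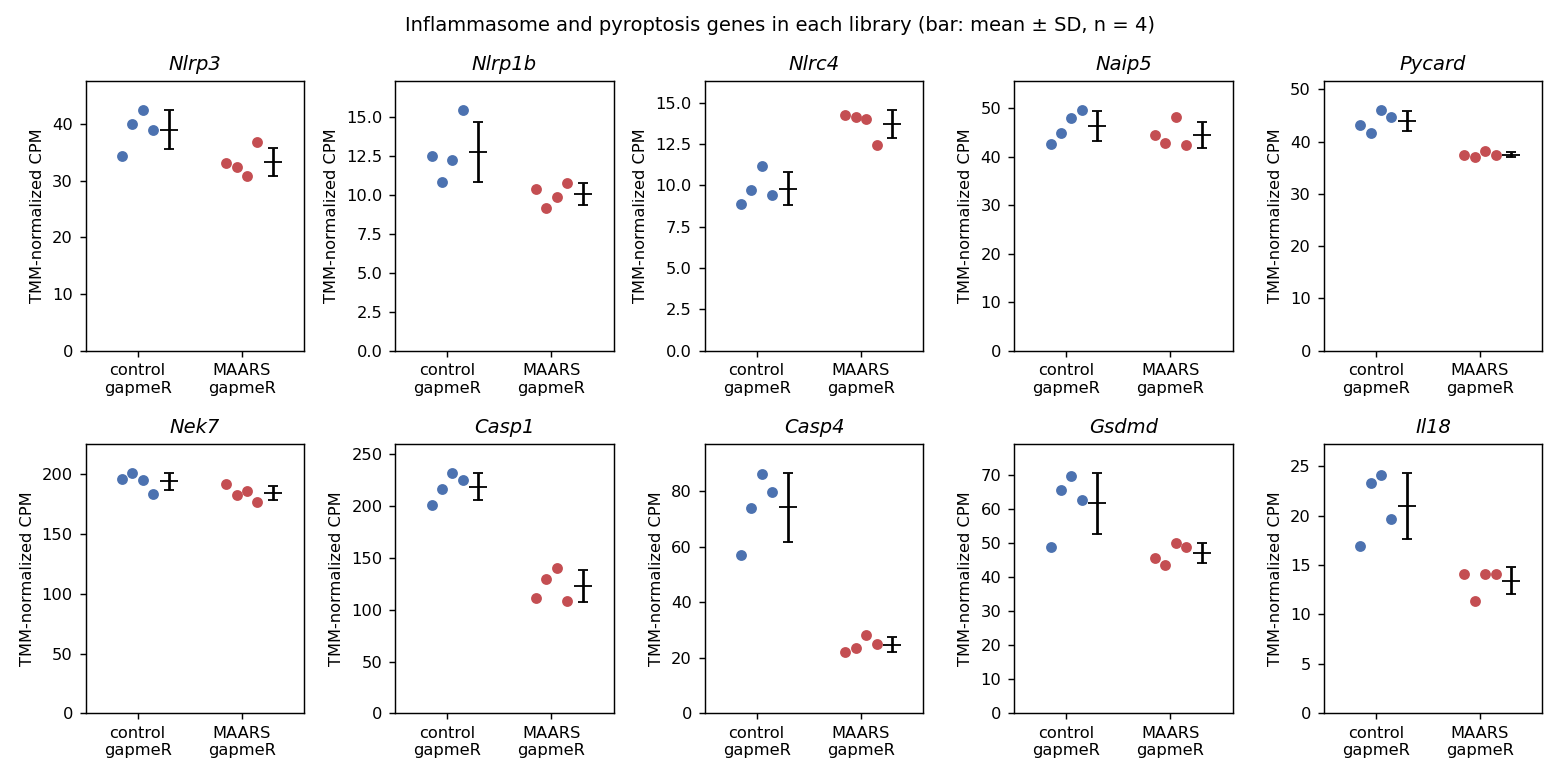
TMM-normalized CPM (y axis, from 0) of each of the 10 genes in the 4 control gapmeR and 4 MAARS gapmeR libraries (points, in the order of their replicate numbers), with the mean ± SD of each group as a bar. Casp1, Casp4, Il18, Pycard and Nlrp1b have every MAARS point below every control point, Nlrc4 has every MAARS point above, and the points of Naip5 and Nek7 are interleaved.

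The genes did not vary alike between replicates. Among the control libraries the coefficient of variation ran from 3.81% for Nek7 and 4.35% for Pycard to 16.9% for Casp4, 16.0% for Il18, 15.2% for Nlrp1b and 14.6% for Gsdmd. Control replicate 2 held the lowest control value for 7 of the 10 genes and control replicate 6 the highest for 7. The interferon-inducible genes Irf1, Gbp2, Gbp3 and Gbp5, chosen for this check after their values were seen, had their lowest control value in replicate 2 and their highest in replicate 6, 4 of 4 in both cases. In the MAARS group replicate 13 was the highest for 6 of the 10 genes and for 4 of the 4 interferon-inducible genes. The lowest MAARS values of the 10 genes were spread over all 4 libraries, and those of the interferon-inducible genes were in replicate 9 (3 of 4) and replicate 11 (1 of 4). The libraries were also placed on the first principal component of all genes tested, the axis that held 74% of their variance. There control replicate 2 lay nearest the MAARS libraries (-18.88), control replicate 6 furthest (-31.33) and MAARS replicate 13 nearest the controls (20.84). How many of all genes follow this order was not counted, and whether it is particular to these genes was not tested.

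Between genes, levels were compared per kilobase of merged exon. That length joins the exons of all annotated transcripts of a gene, and which transcripts were in use was not measured. For Pycard it is 3800 bases, nearly the whole locus, so its level and place may be understated. In the control macrophages Casp1 stood first at 146.2 ± 8.89 CPM per kilobase (SD, n = 4). Nek7 (26.2 ± 1.00), Gsdmd (26.0 ± 3.79), Il18 (20.4 ± 3.26) and Casp4 (19.99 ± 3.37) followed, and each of these overlapped the next over the libraries. Pycard (11.6 ± 0.50), Nlrp3 (9.61 ± 0.85) and Naip5 (8.90 ± 0.60) came next, the last 2 overlapping, and Nlrc4 (2.04 ± 0.21) and Nlrp1b (2.02 ± 0.31) overlapped at the bottom. By length, Casp1 was thus the most abundant transcript of the group and the 4 sensors had the lowest levels.

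With the MAARS gapmeR Casp1 was still first, at 82.1 ± 10.1 CPM per kilobase, and Nek7 (24.9 ± 0.82), Gsdmd (19.8 ± 1.24), Il18 (13.01 ± 1.35) and Pycard (9.86 ± 0.12) followed with no overlap between neighbours. Naip5 (8.55 ± 0.51), Nlrp3 (8.21 ± 0.62) and Casp4 (6.68 ± 0.70) formed a chain of overlapping neighbours. By these lengths, Casp4 thus went from place 5 to place 8 of the 10. Nlrc4 (2.85 ± 0.18) and Nlrp1b (1.59 ± 0.11), which overlapped in the control libraries, no longer did.

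**Figure D3:**
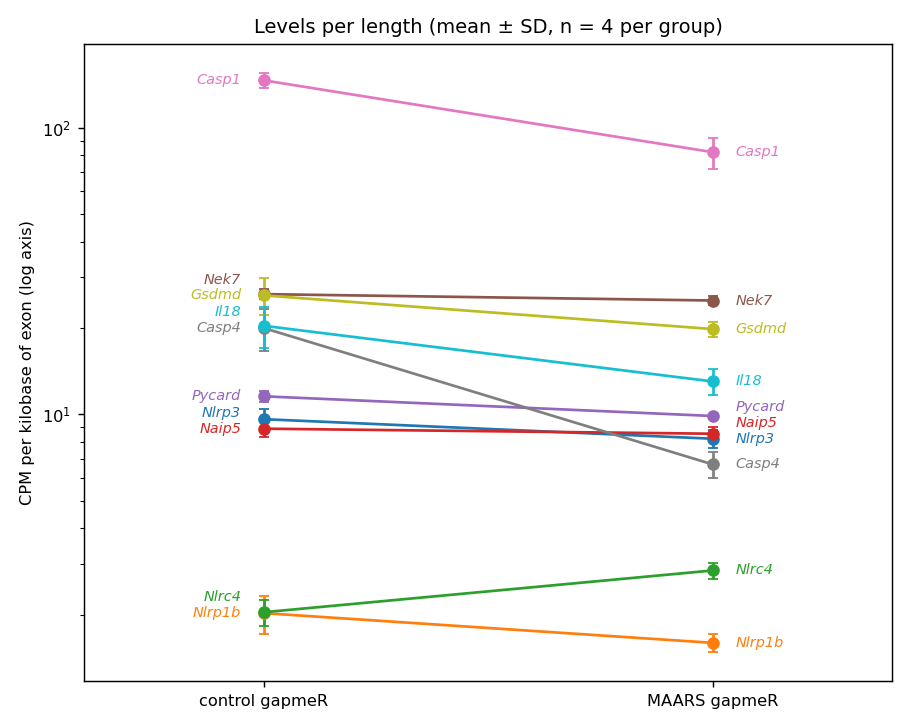
Mean level of each gene in CPM per kilobase of merged exon (y axis, log scale) with the control and the MAARS gapmeR (x axis). Bars are the SD over 4 libraries. Where the lines of different genes cross depends on the merged exon lengths. The line of Casp4 crosses those of Pycard, Naip5 and Nlrp3, from 19.99 to 6.68, and the lines of Nlrc4 and Nlrp1b part from 2.04 and 2.02 to 2.85 and 1.59.

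Because a scaling factor cancels in the ratio of 2 genes of the same library, 5 pairs are described in this way. They were chosen after the values had been seen, so no test is given. Counts were not divided by exon length here. A ratio thus shows a change between the groups, not which gene had more transcripts. Casp4 counts were 0.337 of the Casp1 counts in the control libraries (0.283 to 0.371) and 0.203 with the MAARS gapmeR (0.182 to 0.230). Nlrc4 counts were 0.212 of Naip5 counts in the control (0.190 to 0.233) and 0.308 in the MAARS libraries (0.290 to 0.329). Neither ratio overlapped between the groups, and the log2 ratios differed by -0.73 and 0.55. Naip2 over Naip5 went from 2.38 to 1.74 (-0.45). Il18bp over Il18, the secreted antagonist over its cytokine, went from 5.70 (4.21 to 7.46) to 2.20 (1.64 to 2.71), a difference of -1.37. Per kilobase of merged exon, Il18bp was at 39.4 and Il18 at 20.4 CPM in the control group. With the MAARS gapmeR, Il18bp was at 9.69 and Il18 at 13.01 CPM per kilobase. Nlrp1b over Nlrp1a went from 1.56 to 1.34 with overlap (-0.21).

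**Figure D4:**
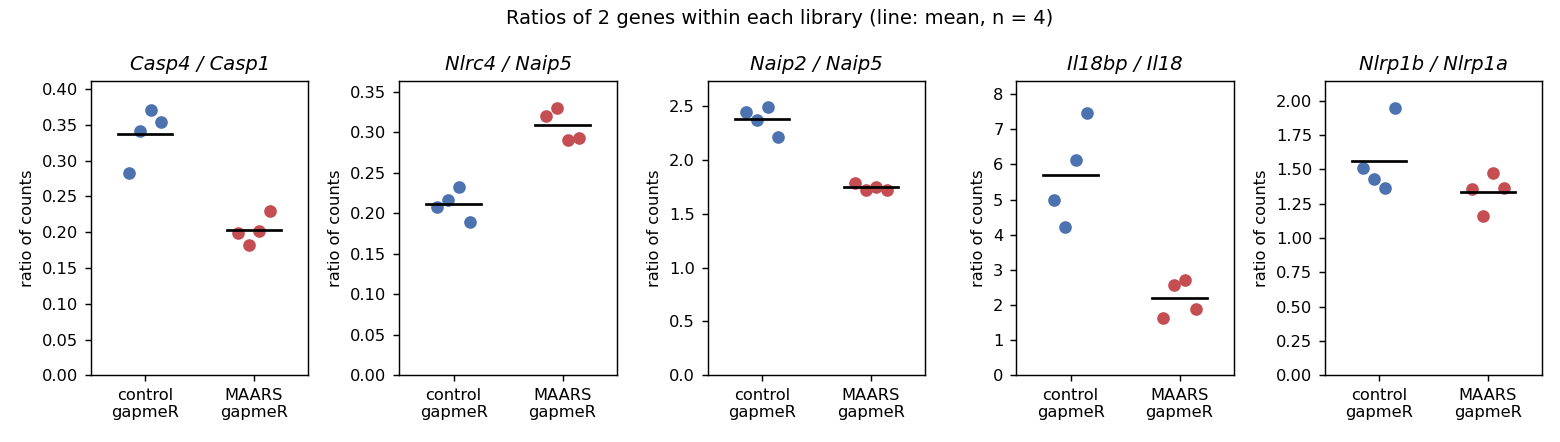
Ratio of the counts of 2 genes within each library (y axes, from 0) for 5 pairs, in the control and the MAARS gapmeR libraries (points), with the mean of each group as a line. Counts are not divided by exon length. The groups are apart for Casp4 over Casp1 (means 0.337 and 0.203), Nlrc4 over Naip5, Naip2 over Naip5 and Il18bp over Il18, and overlap for Nlrp1b over Nlrp1a.

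Around these 10 genes, 74 others of the pathway were listed under 7 roles. Of these, 71 were matched by symbol, 63 were tested, and 36 were called lower, 5 higher and 22 neither, with a median log2 fold change of -0.33. The counts of each list below stand beside the same background, 24.0% of all genes tested called lower and 21.3% higher, with a median of 0.008. Among the other cytosolic sensors, 7 of 10 tested were called lower and the other 3 were not called, with a median of -0.29. Nlrc5, the NLR protein that drives MHC class I transcription, fell by 1.29 on the log2 scale (adjusted p = 1.8e-05). Aim2, the sensor of cytosolic DNA, was at 56.0 to 60.1 CPM in the control and 40.0 to 43.0 CPM in the MAARS libraries (-0.46, interval -0.56 to -0.35, adjusted p = 2.2e-05).

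The cytokines, receptors and antagonists had the lowest median of the 7 lists, -1.13, with 6 of 8 tested called lower. Il18bp, which binds and neutralizes IL-18, was at 84.3, 98.0, 148.2 and 146.5 CPM in the control and 23.1, 29.2, 38.3 and 26.7 CPM in the MAARS libraries. It was 4.07-fold lower (-2.02, interval -2.46 to -1.59, adjusted p = 1.6e-05), against 1.57-fold for Il18. Il1a, the cytokine released by dying cells, fell 3.19-fold (-1.67, adjusted p = 4.8e-06), with 11.2% of its exon bases shared with the antisense gene Gm14023. Il1b, the cytokine that caspase-1 matures, was scarce in these macrophages: 2.05, 2.09, 1.78 and 1.57 CPM in the control and 0.756, 0.278, 0.735 and 0.779 CPM in the MAARS libraries, from 32 to 41 and 7 to 18 counts. It was called lower (-1.56, interval -2.19 to -0.93, adjusted p = 0.0011).

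Of the other caspases, gasdermins and membrane rupture genes, 3 of 7 tested were called lower and 4 were not called, with a median of -0.35. Those called lower included Gsdme, a gasdermin cut by caspase-3 (-0.35, interval -0.53 to -0.17, adjusted p = 0.0052), and Casp8 (-0.15, adjusted p = 0.020). The small change of Casp8 was not followed under the other scalings or without single libraries. Ninj1, whose product ruptures the membrane after the pores have formed, was not called (-0.05, adjusted p = 0.585). Of the 12 tested genes of ion flux, kinases and NLRP3 licensing, 3 were called higher and 3 lower, with a median of -0.01, all near the values over all genes tested (21.3%, 24.0% and 0.008). Txnip, a thioredoxin-binding protein reported to bind NLRP3, rose 1.52-fold (0.60, adjusted p = 0.0004), with 19.4% of its exon bases shared with the antisense gene Gm15441. Brcc3, the deubiquitinase that licenses NLRP3, fell 1.81-fold (-0.85, adjusted p = 5.3e-06).

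Of the genes of LPS delivery and priming, 8 of 11 tested were called lower and 2 higher, with a median of -0.87. The 5 that fell by at least 1.5 on the log2 scale were Gbp2 (-2.70), Gbp3, Gbp5 (-3.04), Gbp7 (-1.54) and Gm12250 (-2.20). GENCODE M21 lists Gm12250 as a processed pseudogene, and whether it makes a protein was not examined here. Gbp3, a guanylate-binding protein of the family that opens bacteria to the Casp4 product, fell from 161.3 ± 37.3 to 26.1 ± 6.50 CPM (-2.63, adjusted p = 5.3e-06). The LPS receptor gene Tlr4 (-0.39, adjusted p = 0.00023) and its adaptor Myd88 (-0.87, adjusted p = 6.7e-06) also fell, whereas the co-receptor Cd14 (0.74, adjusted p = 0.00063) and Hmgb1, a nuclear protein that can carry LPS into cells (0.47, adjusted p = 1.8e-05), rose. Of the brakes and membrane repair genes, 5 of 8 tested were called lower and 3 were not called, with a median of -0.17. Trim30a, which restrains NLRP3 activation, fell by 1.44 on the log2 scale (adjusted p = 7.3e-06). Gbp3, Trim30a and Hmgb1 have close paralogs or pseudogenes, among which shared reads could be split.

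Transcription factors known to drive inflammasome genes had a median of -0.21, with 4 of 7 tested called lower and 3 not called. Irf1, an interferon target and activator of Casp1 and Gbp genes, fell from 106.6 ± 17.4 to 66.4 ± 7.14 CPM (-0.68, adjusted p = 0.00056). Spi1, the gene of PU.1, fell 1.31-fold (-0.39, adjusted p = 0.00034). Irf8, which drives Naip genes, had -0.21 (adjusted p = 0.024), a call lost with upper-quartile factors, with library totals and in 3 of 8 fits without 1 library. Irf2, an activator of Gsdmd, was not called (-0.14, interval -0.27 to -0.01, adjusted p = 0.071), but was without control replicate 2 (-0.19, adjusted p = 0.0065).

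**Figure D5:**
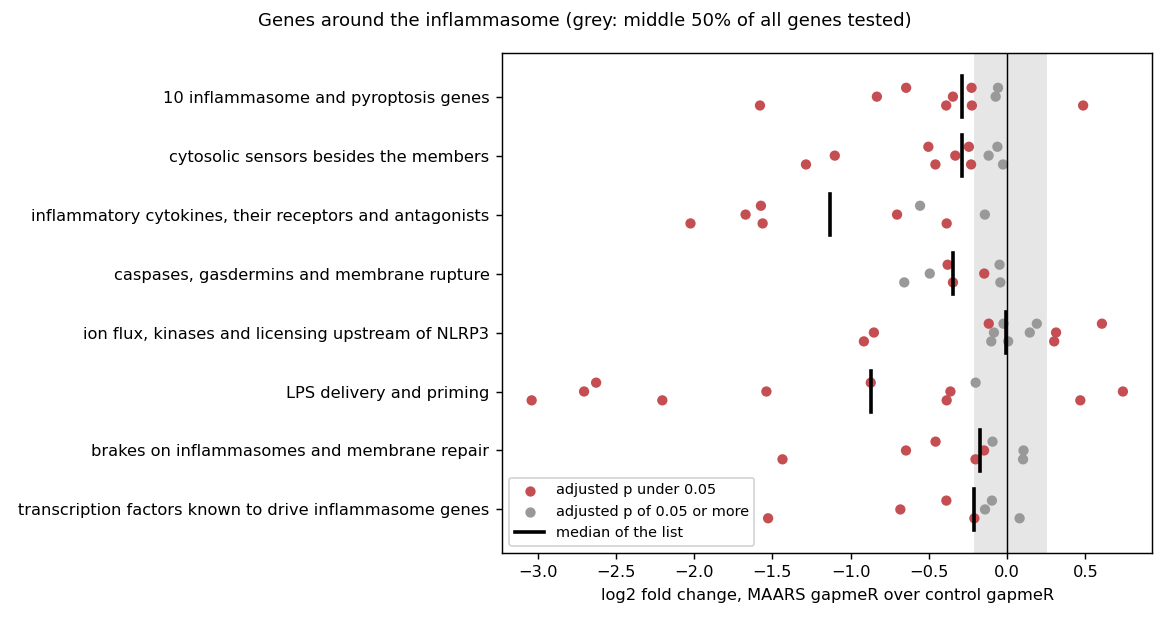
Log2 fold change of each tested gene (x axis, MAARS gapmeR over control gapmeR), by list (y axis), red where the adjusted p is under 0.05; black bars are list medians and the grey band is the middle 50% of all genes tested. The cytokine list (median -1.13) and the LPS delivery list (median -0.87) reach furthest to the left, and the NLRP3 licensing genes lie on both sides of 0 (median -0.01).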

How the data were processed

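Total RNA of 8 BMDM cultures, 4 per gapmeR, was ribodepleted and sequenced (HiSeq2500). Per the labels and the study's methods the authors trimmed reads with Trimmomatic 0.36, aligned them to mm10 (GRCm38) with Ensembl release 79 transcripts using STAR 2.5.2b, and deposited 1 table of raw counts per gene made with featureCounts (Subread 1.5.2); strand and multi-mapping settings are not given in the sources used here. Of the Ensembl identifiers, 99.47% were in GENCODE M21 (GRCm38), whose names, coordinates and merged exon lengths were used.

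The counts were filtered with filterByExpr (minimum count 10, total 15), scaled by TMM and tested with edgeR 4.0.16 (R 4.3.3), glmQLFit and glmQLFTest, in 1 fit of all 8 libraries with group as the only term; a call is an adjusted p under 0.05. Intervals are from the t distribution, with each standard error taken from the fold change and its F statistic. Alternatives used RLE and upper-quartile factors, library totals, DESeq2 1.42.0, limma-voom (limma 3.58.1), other filters, an added fold threshold of 1.5 on the log2 scale, and each library left out. The CPM of MAARS was also compared by exact permutation (scipy 1.17.1). The fit was tested on simulated data. Replicate pairs differed by 4.26 to 15.4 in chi-square per gene, so no pair looked like 1 library listed again; this does not show that the cultures were independent.

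The members and gene lists were chosen with earlier results of these data known. Named genes were the 10 members, MAARS, Il1b, Aim2, Gsdme, Il18bp, Irf1, Irf2, Irf8, Spi1 and the cluster neighbours of members. The gene with the smallest p in each direction among the calls of each list was named as well. Casp8, Ninj1, Tlr4, Myd88, Cd14, Gbp2, Gbp5, Gbp7 and Gm12250 were named after their values were seen. Their calls were not followed gene by gene under the other settings. Naip7, Pydc3 and Pydc4 had no symbol match, and some genes of the lists, though counted in them, are not reported here by name. Promoter sequences are from RefSeq; protein sequences were not used here.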

Additional observations from a re-analysis of the deposited data

Results flagged for a closer look

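In 4 of 62 groups of 4 libraries tested, 1 library lay further from the other 3 than Dixon's test allows at its 95% level; chance flags about 1 in 20 groups. Nlrc4 was at 12.4 CPM in MAARS replicate 15, against 14.0 to 14.3 CPM in the other MAARS libraries, and still above every control library. Il18 was at 11.3 CPM in MAARS replicate 11, against 14.1 CPM in the others. In the same library Il1b was at 0.278 CPM, from 7 counts, against 0.735 to 0.779 CPM. Irf2 was at 66.7 CPM in control replicate 2, against 77.5 to 79.4 CPM in the other controls, and only without that library was Irf2 called lower.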

How the results depend on the processing

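Across RLE factors, DESeq2, limma-voom and both other filters, each of the 10 genes kept its direction and its side of the threshold. Upper-quartile factors and library totals moved the median of all genes by 0.063 and 0.064 and left 5 genes lower: Nlrp3 (-0.163 and -0.161) and Nlrp1b (-0.285 with both) were no longer called, and Naip5 turned to 0.003 and 0.004. Under these 2 settings 8 and 9 of the wider pathway genes were higher instead of 5, and the calls over all genes were 3622 higher and 2379 lower, and 3627 and 2335. With 1 library left out, 5 to 7 of the 10 genes were lower and 1 higher, Nlrp3 ranged from -0.277 to -0.187, Nlrp1b from -0.424 to -0.242 and Naip1 from -0.26 to 0.208 (0.071 without MAARS replicate 15). With a log2 fold change of at least 1.5 asked for as well, 0 of the 10 genes were higher and 1 lower, 0 and 10 of the wider genes, and 67 and 220 of all genes; the stricter rule itself sets these counts. The cause of the other changes was not tested. No paired analysis was possible because the control and MAARS libraries share no replicate number. Low counts limit the precision of some genes: Il1b rests on 7 to 41 counts per library and Naip1 on 17 to 46.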
